A study of Mus musculus with 4 samples.

Results

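The platelet-derived growth factor (PDGF) family was read in single cells of mouse dorsal root ganglia (DRG). The 6 genes are the receptors Pdgfra and Pdgfrb and the ligands Pdgfa, Pdgfb, Pdgfc and Pdgfd, taken by symbol from the 33456 genes of the deposited count matrices. They form the whole of this receptor and ligand family, and all 6 had unique molecular identifiers (UMIs, each standing for 1 captured mRNA molecule) in the filtered cells, in which 19095 genes were detected. PDGFs are secreted dimers that bind pairs of receptor tyrosine kinases. PDGF-A and PDGF-C act mainly through PDGFRα, the receptor of many fibroblasts and glial progenitors. PDGF-B binds both receptors, PDGF-D acts mainly through PDGFRβ, and endothelial PDGF-B acting on PDGFRβ is known for recruiting pericytes and smooth muscle to vessels. PDGF-C and PDGF-D are secreted in a latent form that proteases activate, tissue plasminogen activator being one for PDGF-C.

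Ganglia of C57BL/6 mice aged 8 to 12 weeks were taken without injury (control) or 3 days after the sciatic nerve was crushed (injury), with 2 libraries per condition, described as biological replicates. The labels name the L4 ganglion, the study's methods both L4 and L5, and the methods restrict this experiment to females. No engineered allele is named for either group, and per the methods mice had isoflurane and the analgesic buprenorphine at surgery. Ganglia were dissociated with papain and collagenase, live cells were sorted, and 10x Genomics droplet libraries that count the 3' ends of transcripts were made, so that each library pools cells of several ganglia and isoforms are not told apart.

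Of 6975 barcodes in the 4 libraries, 6095 met the study's limits on cells (600 to 15000 UMIs, 500 to 4000 genes and under 10% mitochondrial UMIs). Total UMIs were 5585909 and 11210875 in control 1 and control 2, and 11163177 and 9477167 in injury 1 and injury 2. Between 1 and 6 barcodes recurred between any pair of libraries. A cell was gated to a type when it held at least 3 of the type's markers and a lead of 2 markers over any other list; no PDGF gene was a marker. The gates placed 4894 cells and left 1201 ungated. Each type described here held UMIs of all of its own markers, including the neuronal ones that the label of the tissue calls for. Pericytes, the contractile cells on capillaries, and smooth muscle came mostly from the libraries numbered 1, with 88 and 123 pericytes there against 14 in control 2 and 9 in injury 2. Levels are given as CPM, the UMIs of a gene per 1e6 UMIs of the gated cells of a type in 1 library, for libraries with at least 10 such cells. Each molecule is counted once at its 3' end, so CPM carries no length term.

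Fibroblasts and the cells of vessel walls had the highest levels of the receptors, Pdgfra in fibroblasts and Pdgfrb in both. Pdgfra was a gene of fibroblasts: of its 642 UMIs over all barcodes, 89.7% lay in gated fibroblasts within the cell limits and 3.27% in those outside them. Pdgfrb was highest in pericytes, lower in smooth muscle and fibroblasts, and present at a low level in satellite glial cells (SGC, the glia around each neuron) and myelinating Schwann cells. Among the ligands, Pdgfa was highest in pericytes and smooth muscle and lower in Schwann cells and neurons, Pdgfb was highest in endothelial cells, Pdgfc in SGC and smooth muscle, and Pdgfd in smooth muscle and endothelial cells.

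**Figure D1:**
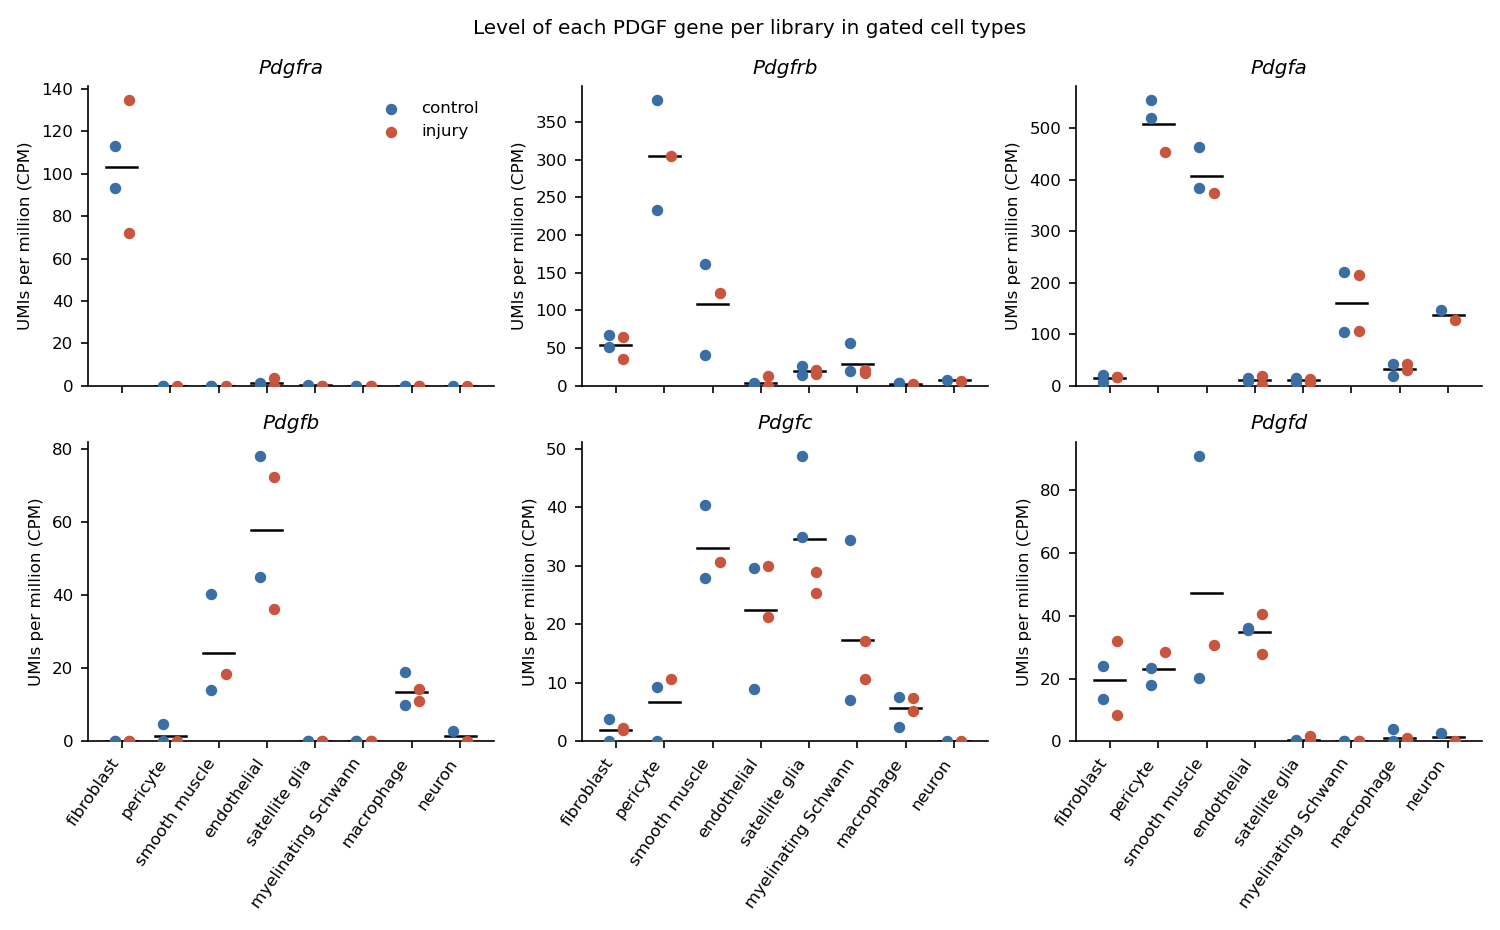
Each panel shows 1 PDGF gene, with CPM on the y axis and the gated cell type on the x axis. Points are libraries with at least 10 cells of the type (blue control, red injury) and the bar is their mean; Pdgfra stood above 72 CPM in all 4 fibroblast libraries and at or below 3.52 CPM in the other 7 types shown.

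Pdgfra, whose protein PDGFRα binds PDGF-A and PDGF-C, measured 113 and 93.1 CPM in the fibroblasts of control 1 and control 2, and 72.3 and 135 CPM in those of injury 1 and injury 2. The mean was 103 CPM ± 26.8 (SD, n = 4), and the conditions overlapped. Pericytes, smooth muscle, Schwann cells, macrophages and neurons within the cell limits held no Pdgfra UMI, SGC held 1 and endothelial cells 3. A Pdgfra UMI was found in 31.2% of 1301 fibroblasts (exact 95% interval 28.7 to 33.8; median 4087 UMIs per cell), against 0 of 992 macrophages at the same median depth, which by a limit of 3 counts allows a share of up to 0.302%. The same limit is used for every count of 0, and such intervals and limits cover counting error only. After thinning every fibroblast to 1000 UMIs the share was 9.30%. In edgeR's quasi-likelihood test on summed counts, with Benjamini-Hochberg adjustment, Pdgfra was higher in fibroblasts than the mean of the other types (adjusted p = 8.77e-20). That mean, on the log scale, weighs every other type alike, including types without a UMI. A type can thus be called higher, here and below, while it lies under some of the others. DESeq2 did not call Pdgfra in fibroblasts (adjusted p = 0.337).

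Fibroblasts fell into a connective tissue class with markers such as Apod and Ccl11 (770 cells) and a mesenchymal class with markers such as Mfap4 and Sfrp4 (473 cells). Pdgfra measured 133 and 151 CPM in control and 90.3 and 173 CPM in injury in the former, and 44.5 and 51.1 CPM in control and 33.4 and 75.7 CPM in injury in the latter. Connective tissue fibroblasts were the higher class in each of the 4 libraries, by 1.60 ± 0.20 on the log2 scale (SE; edgeR, adjusted p = 5.25e-08), which is under the 4-fold change asked of a call. Pdgfrb did not separate the classes, with a difference of -0.24 ± 0.25 (adjusted p = 0.609), while Pdgfd leaned the other way, at -1.06 ± 0.37 (adjusted p = 0.0391). Mean Pdgfd was 12.9 CPM ± 7.24 (SD, n = 4) in connective tissue and 30.5 CPM ± 13.5 in mesenchymal fibroblasts. Pdgfc was called higher in the mesenchymal class in the same test (adjusted p = 0.0169), on 1 UMI against 10, a call that was lost without injury 1 (adjusted p = 0.171) and without injury 2 (0.108). Of 9109 genes tested between the classes, 6.67% were called in either direction. In the 236 fibroblasts with a UMI of Pi16 or Dpp4, which mark adventitial fibroblasts, Pdgfra averaged 84.1 CPM ± 29.5 and Pdgfrb 59.1 CPM ± 16.3 (SD, n = 4 libraries), against 108 CPM ± 27.1 and 53.5 CPM ± 14.99 in the other fibroblasts.

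Both receptors were seldom caught in the same fibroblast. Of 1301 cells, 321 had a UMI of Pdgfra alone, 166 of Pdgfrb alone, 85 of both and 729 of neither. Among fibroblasts with a Pdgfrb UMI 33.9% also had a Pdgfra UMI, and among those without 30.6% did. The corresponding shares were 47.0% and 37.9% in connective tissue and 18.9% and 18.8% in mesenchymal fibroblasts. At this depth an absent UMI does not show an absent transcript, and deeper cells hold more UMIs of both genes.

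**Figure D2:**
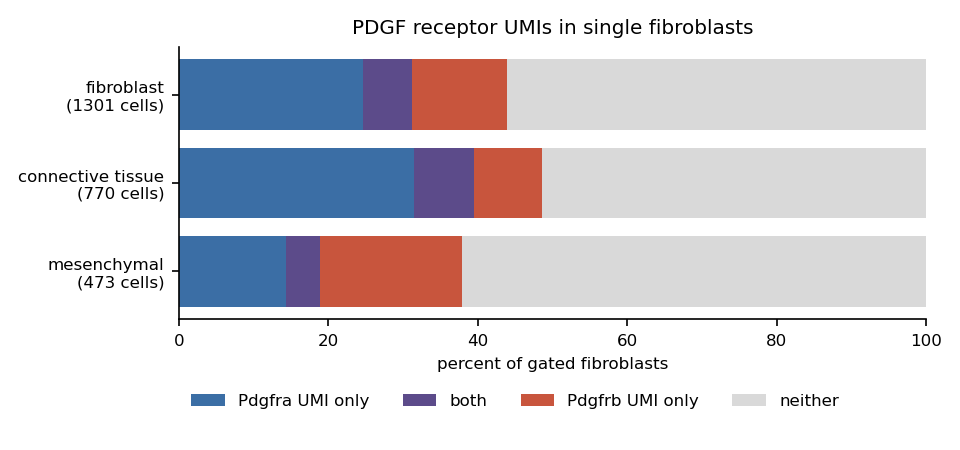
Stacked bars give the percent of gated fibroblasts (x axis) with a UMI of Pdgfra only, of both receptors, of Pdgfrb only or of neither, for all fibroblasts and for the connective tissue and mesenchymal classes (y axis). Cells with Pdgfra alone made up 31.4% of connective tissue and 14.4% of mesenchymal fibroblasts, cells with Pdgfrb alone 9.09% and 19.03%.

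The promoter of Pdgfra is shown beside that of Pdgfa because these genes mark the extremes of the family, a receptor high in 1 type and a ligand called in 5. Both are RefSeq windows of the GRCm38.p6 assembly (mm10), from 250 bases before to 50 after an annotated start, printed in lower case with each GC box (GGGCGG or its reverse complement, either strand) in capitals. The Pdgfra window is chr5:75152001-75152300 on the plus strand, and the Pdgfa window is chr5:138994895-138995194 on the minus strand, the one at higher coordinates of its 2 windows.
Pdgfra: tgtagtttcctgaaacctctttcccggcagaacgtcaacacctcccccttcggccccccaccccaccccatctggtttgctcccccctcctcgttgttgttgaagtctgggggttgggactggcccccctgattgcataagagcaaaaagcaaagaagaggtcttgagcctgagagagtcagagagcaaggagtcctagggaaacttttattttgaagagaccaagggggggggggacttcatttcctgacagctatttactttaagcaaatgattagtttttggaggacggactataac
Pdgfa: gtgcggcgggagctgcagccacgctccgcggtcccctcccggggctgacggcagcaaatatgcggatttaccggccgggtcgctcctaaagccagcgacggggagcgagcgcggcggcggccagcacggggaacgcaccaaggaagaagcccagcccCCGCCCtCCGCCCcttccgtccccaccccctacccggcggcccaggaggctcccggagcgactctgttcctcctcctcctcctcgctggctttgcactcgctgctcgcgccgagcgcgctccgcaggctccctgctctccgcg
The Pdgfra window was 51.0% G or C and held no GC box. The Pdgfa window was 73.3% G or C and held 2 GC boxes, which do not overlap each other. The other Pdgfa window, not printed, was 67.0% G or C and held 1 GC box. Over 32851 windows the median was 52.7% G or C and 35.7% held a GC box. Neither printed window held TATAAA on either strand, which occurred in 13.6% of windows and once in that of Pdgfd. In the GENCODE annotation of the same build, Pdgfra spans 75152292 to 75198215 on chromosome 5 and Pdgfa 138976014 to 138997370 on chromosome 5. The printed Pdgfa window lies inside that gene's span and not at its upstream end. Pdgfc lies at 81036416 to 81214040 on chromosome 3, Pdgfd at 6168584 to 6378850 on chromosome 9 and Pdgfb at 79995874 to 80014977 on chromosome 15. Genes on the opposite strand overlap each of these 5, and the counting is not stated to use strand in the sources used here. On the same strand, Mir7025 overlaps Pdgfra and Mir7213 overlaps Pdgfb.

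Pdgfrb, whose protein PDGFRβ binds PDGF-B and PDGF-D, measured 379 and 232 CPM in the pericytes of control 1 and control 2 and 304 CPM in those of injury 1. The mean was 305 CPM ± 73.1 (SD, n = 3), and injury 2 held too few pericytes to enter. Smooth muscle measured 161 and 40.3 CPM in control and 123 CPM in injury 1, the control 2 value resting on 2 UMIs. Fibroblasts measured 51.1 and 66.7 CPM in control and 35.8 and 64.4 CPM in injury. Smooth muscle and fibroblasts overlapped, and every pericyte library lay above both. A Pdgfrb UMI was found in 52.1% of 234 pericytes (95% interval 45.5 to 58.7; median 2282 UMIs per cell; 26.7% after thinning), in 19.3% of fibroblasts and in 0.605% of macrophages (median 4087 UMIs).

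Pericytes exceeded fibroblasts in Pdgfrb (fibroblast minus pericyte -2.44 ± 0.26 on the log2 scale, edgeR, adjusted p = 2.99e-10), a called difference in a contrast where 11.2% of genes were called. They exceeded smooth muscle by 1.21 ± 0.33 (adjusted p = 0.0172), under the 4-fold threshold, where 3.86% of genes were called. The difference between fibroblasts and smooth muscle was -1.23 ± 0.35 (adjusted p = 0.00667), also under it, where 14.8% were called. Against the mean of the other types Pdgfrb was called higher in pericytes (edgeR, adjusted p = 4.45e-18), smooth muscle (1.38e-09) and fibroblasts (1.99e-09). It was also called in SGC (adjusted p = 0.00352) and Schwann cells (0.0105), which lay under those types on average. Only the calls of pericytes, smooth muscle and fibroblasts were also made by DESeq2. The Schwann call was lost without control 2 (adjusted p = 0.0646).

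In glia Pdgfrb was low. SGC measured 13.9 and 26.7 CPM in control and 14.98 and 21.3 CPM in injury, with a mean of 19.2 ± 5.96 (SD, n = 4), and Schwann cells 19.7 and 57.1 CPM in control and 21.2 and 17.1 CPM in injury. The SGC value of control 1 rests on 2 UMIs in 46 cells. The SGC and Schwann values overlapped (difference -0.32 ± 0.48 on the log2 scale, edgeR, adjusted p = 0.737). Of 1151 SGC 8.25% had a UMI (median 4162 UMIs per cell), or 1.89% after thinning. Pericyte markers, all 8 listed being detected in pericytes, summed to 32.3 CPM in SGC, which is 0.213% of their level in pericytes, while Pdgfrb in SGC was 6.60% of its pericyte level. The fibroblast markers stood in SGC at 0.800% of their fibroblast level, Pdgfra at 0.189% and Pdgfrb at 37.8%. The gate itself holds the marker lists of other types low in SGC, since an SGC had to lead each by 2 markers. No PDGF gene is held in this way, so the marker shares are no measure of carry-over. The source of the Pdgfrb UMIs in SGC was not tested. Clusters named SGC held 1554 cells, so they are not the 1151 gated SGC. The one led by Acsbg1, Fabp7 and Hes5 (782 cells) measured 25.5 CPM Pdgfrb, and the one led by Ednrb and Pou3f1 (772 cells) 7.05 CPM. Pdgfc went the other way, with 22.8 and 46.7 CPM. On average 67.1% and 38.7% of SGC markers were detected in their cells. From the libraries numbered 1 came 191 cells of the former and 642 of the latter, 552 of these from injury 1. The part of the libraries in these differences was not tested. A cluster of 59 fibroblasts led by Coch and Actg2 measured 218 CPM Pdgfrb, on 61 UMIs. These cluster values are descriptions without a test, since the clusters were drawn from the expression of the same cells.

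The ligand Pdgfa, whose protein forms the PDGF-AA dimer, was the most abundant member, with 2406 UMIs over all barcodes. In pericytes it measured 519 and 554 CPM in control and 453 CPM in injury 1, and in smooth muscle 384 and 464 CPM in control and 374 CPM in injury 1. The means were 509 CPM ± 51.4 and 407 CPM ± 49.0 (SD, n = 3), and the types overlapped (difference 0.18 ± 0.25 on the log2 scale, edgeR, adjusted p = 0.818). A UMI was found in 66.2% of pericytes (36.9% after thinning) and 64.2% of smooth muscle cells (31.2%), against 4.87% of SGC (1.15%). Of 234 pericytes, 84 held UMIs of both Pdgfa and Pdgfrb. PDGF-A acts mainly through PDGFRα, and no Pdgfra UMI was found in these pericytes. Pdgfa was found in 68.9% of pericytes with a Pdgfrb UMI and in 63.4% of those without.

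Among glia, Pdgfa stood higher in Schwann cells than in SGC. Schwann cells measured 103 and 221 CPM in control 1 and control 2 and 106 and 214 CPM in injury 1 and injury 2, so the libraries split by number and not by condition. Schwann cells made up a pair of clusters. The one led by Ncmap and Cldn19 measured 67.4 CPM Pdgfa and drew 162 of its 172 cells from the libraries numbered 1. The one led by Pmp2 measured 223 CPM with 50 of 98 cells from them. The part of these clusters in the split between libraries was not tested. SGC measured 10.2 CPM ± 3.63 (SD, n = 4), lower than Schwann cells (SGC minus Schwann -3.68 ± 0.32 on the log2 scale, edgeR, adjusted p = 1.14e-12), a called difference in a contrast where 9.05% of genes were called. A further cluster led by Kcna1 and Scn7a (287 cells), which was not named, measured 143 CPM Pdgfa and no Pdgfrb UMI, with 277 of its cells from the libraries numbered 1. The 24 cells gated to glia with Scn7a and Cadm2 stood at 167 CPM in injury 1, the 1 library with enough of them, on 4 UMIs.

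Fibroblasts were low in Pdgfa, at 15.6 CPM ± 6.23 (SD, n = 4), lower than pericytes (fibroblast minus pericyte -4.79 ± 0.26 on the log2 scale, edgeR, adjusted p = 5.26e-19) and lower than smooth muscle (-4.60 ± 0.29, adjusted p = 3.30e-17). Macrophages measured 18.7 and 41.7 CPM in control and 41.7 and 30.3 CPM in injury. Against the mean of the other types Pdgfa was called higher in pericytes (edgeR, adjusted p = 3.29e-19), smooth muscle (1.68e-16) and Schwann cells (3.34e-10). It was also called in neurons (adjusted p = 1.56e-06) and in macrophages (0.00425), which lay under all of these types on average. The neuron call rests on control 2 (43 neurons) and injury 2 (17) alone, since control 1 and injury 1 held 5 each within the limits. The macrophage call was lost without control 1 (adjusted p = 0.0660) and in DESeq2 (0.0699), and without injury 1 its fold fell under the threshold.

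Neurons carried more Pdgfa UMIs than any other type once the limits on cells were lifted. Only 70 of 355 neuron barcodes lay within the limits, and the neurons outside them held 43.3% of all Pdgfa UMIs. Over all neuron barcodes Pdgfa measured 133 and 130 CPM in control and 76.0 and 106 CPM in injury. A UMI was found in 79.2% of them at a median of 20618 UMIs per barcode. For the 70 within the limits the share was 58.6% (median 9139 UMIs), or 11.5% after thinning, which is close to the 10.7% of thinned Schwann cells. Neurons with at least 3 UMIs of Nefh, a neurofilament of large myelinated neurons, measured 125 and 117 CPM in control and 69.9 and 108 CPM in injury, and those with fewer 151 and 138 CPM in control and 106 and 103 CPM in injury, the order turning in injury 2. With at least 3 UMIs of Calca, the gene of the peptide CGRP, the levels were 131 and 134 CPM in control and 66.3 and 105 CPM in injury, and with fewer 149 and 122 CPM in control and 84.8 and 109 CPM in injury, the order turning in control 2. No order by Nefh or Calca held in all 4 libraries, and splits by Th and Atf3 also turned. The 15 neurons with at least 3 UMIs of Mrgprd were lower in each library, at 106 and 81.6 CPM in control and 54.3 and 89.1 CPM in injury. Those with fewer measured 149 and 137 CPM in control and 77.1 and 107 CPM in injury. The former numbered 3 and 9 in control 1 and control 2, and 1 and 2 in injury 1 and injury 2. Their median was 70066 UMIs per barcode against 20185.5 in the others, so the groups also differed in depth. The study set its limits to drop low-quality cells and potential doublets. The part of depth or of doublets in this order was not tested.

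**Figure D3:**
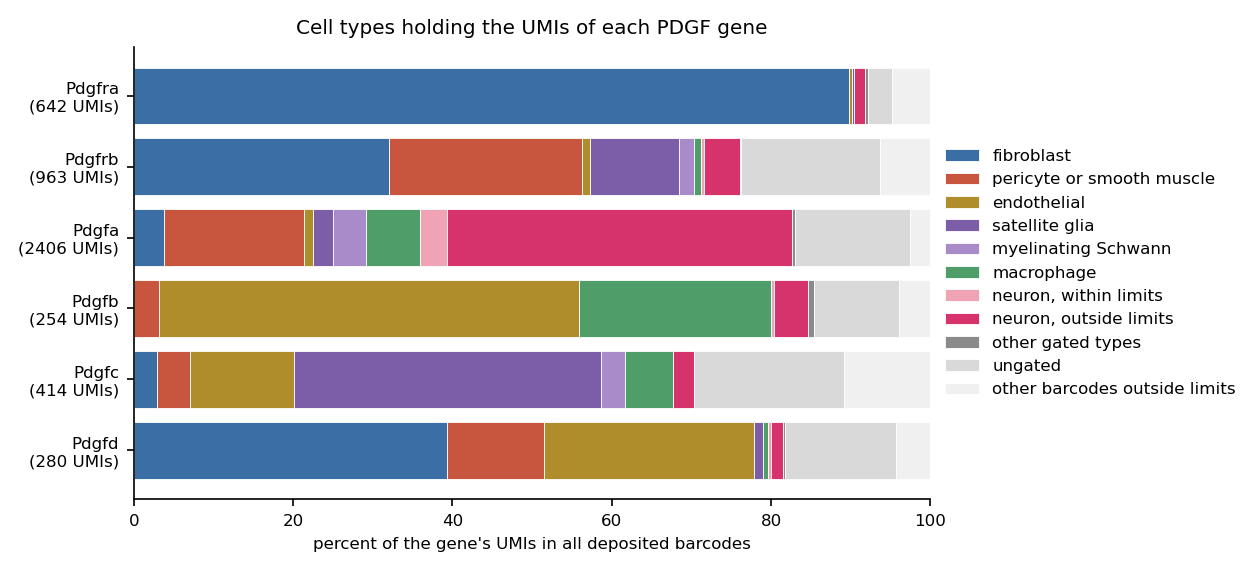
Stacked bars give, for each PDGF gene (y axis, with its UMIs over all barcodes), the percent of UMIs in each gated cell type (x axis). Neurons outside the cell limits held 43.3% of Pdgfa UMIs and at most 4.57% of those of the other 5 genes, and fibroblasts within the limits held 89.7% of Pdgfra UMIs.

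Pdgfb, the ligand that binds both receptors, measured 45.0 and 78.0 CPM in the endothelial cells of the controls and 36.2 and 72.2 CPM in those of the injury libraries, with a mean of 57.9 CPM ± 20.4 (SD, n = 4). Macrophages were 4.26-fold lower, at 10.0 and 18.9 CPM in control and 14.4 and 11.0 CPM in injury, and every endothelial library lay above every macrophage library. Of the 254 UMIs over all barcodes, endothelial cells within the cell limits held 52.8% and macrophages within them 24.0%. Fibroblasts, SGC and Schwann cells within the limits held none, and 0 of 1301 fibroblasts allows a share of up to 0.231%. A UMI was found in 23.7% of 439 endothelial cells (95% interval 19.8 to 28.0; median 4315 UMIs per cell; 5.91% after thinning). Pericytes, which carry the most Pdgfrb, held 1 Pdgfb UMI in 234 cells. Pdgfb was called higher in endothelial cells (edgeR, adjusted p = 3.16e-12), macrophages (3.74e-07) and smooth muscle (0.000379), the last on 7 UMIs. Smooth muscle was also called above fibroblasts (adjusted p = 1.14e-05), where no UMI was found.

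Pdgfc, whose product is activated outside the cell and acts on PDGFRα, had its highest levels in SGC, smooth muscle and endothelial cells. SGC measured 48.8 and 34.9 CPM in control and 29.0 and 25.3 CPM in injury, with a mean of 34.5 CPM ± 10.3 (SD, n = 4). The control 1 value rests on 7 UMIs in 46 SGC. SGC within the cell limits held 38.6% of the 414 Pdgfc UMIs over all barcodes. Smooth muscle measured 28.0 and 40.3 CPM in control and 30.7 CPM in injury 1, and endothelial cells 8.999 and 29.6 CPM in control and 21.3 and 29.9 CPM in injury, so these 3 types overlapped. The smooth muscle values rest on 4, 2 and 5 UMIs and the endothelial value of control 1 on 2. Schwann cells measured 34.5 and 7.14 CPM in control and 10.6 and 17.1 CPM in injury, on 12 UMIs. Pericytes measured 9.35 and 0 CPM in control and 10.6 CPM in injury 1. Fibroblasts, which carry Pdgfra, measured 1.98 CPM ± 1.55 (SD, n = 4). A UMI was found in 12.3% of SGC (95% interval 10.4 to 14.3; 3.23% after thinning), against 0.922% of fibroblasts at a like depth (medians 4162 and 4087 UMIs). Pdgfc did not pass the filter on low counts for the test across types, so the other 5 members were tested there. Without that filter it was called higher in SGC, smooth muscle, endothelial and Schwann cells.

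Pdgfd, the ligand of PDGFRβ that needs activation, was spread over vessel cells and fibroblasts. Smooth muscle measured 90.9 and 20.2 CPM in control and 30.7 CPM in injury 1, endothelial cells 36.0 and 35.5 CPM in control and 27.7 and 40.5 CPM in injury, pericytes 23.4 and 17.9 CPM in control and 28.3 CPM in injury 1, and fibroblasts 13.6 and 23.9 CPM in control and 8.31 and 31.8 CPM in injury. All these types overlapped, and the control 2 values of smooth muscle and pericytes each rest on 1 UMI. Pericytes and smooth muscle differed by -1.15 ± 0.61 on the log2 scale (edgeR, adjusted p = 0.357), fibroblasts and pericytes by -0.54 ± 0.53 (adjusted p = 0.545), and fibroblasts and smooth muscle by -1.68 ± 0.51 (adjusted p = 0.0105, under the 4-fold threshold). Schwann cells held no Pdgfd UMI and SGC 3. Pdgfd was called higher in endothelial cells (adjusted p = 2.03e-08), smooth muscle (1.51e-07), fibroblasts (2.13e-06) and pericytes (9.02e-05). A UMI was found in 14.6% of endothelial and 15.6% of smooth muscle cells (3.48% and 5.37% after thinning), against 0.202% of macrophages.

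Counted by cell type, 4 of the 5 members tested were called higher in smooth muscle, where 12.5% of 8446 genes were, and 3 in pericytes, where 14.5% were. In fibroblasts 3 were called, beside 18.0% of genes. In endothelial cells 2 were called, beside 14.7%, in macrophages 2, beside 14.9%, and in Schwann cells 2, beside 13.0%. SGC had 1, beside 17.0%, and neurons 1, beside 15.6%. Of 15 contrasts of a member between chosen pairs of types with at least 4 UMIs on each side, 4 were called. They were Pdgfa in fibroblasts against pericytes and against smooth muscle, Pdgfrb in fibroblasts against pericytes, and Pdgfa in SGC against Schwann cells. Of all genes, 11.2% were called in fibroblasts against pericytes, 14.8% against smooth muscle and 9.05% in SGC against Schwann cells. The shares were 3.86% between pericytes and smooth muscle and 6.67% between the fibroblast classes. Contrasts with fewer UMIs on a side are not in this count, and their fitted folds are not given. Of these, edgeR called Pdgfra in fibroblasts against pericytes and against smooth muscle, Pdgfb in fibroblasts against smooth muscle and Pdgfc between the fibroblast classes. Pdgfb in pericytes against smooth muscle, on 1 and 7 UMIs, was not called (edgeR, adjusted p = 0.103).

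Over 14 gated types and 9166 genes with at least 200 UMIs, the patterns of log2(CPM + 1) most like those of the members were found by Pearson's r, as a description. Pdgfra was closest to Gcg, Ttr and Inmt (r from 0.984 to 0.988), Pdgfrb to Vasn, Hoxc6 and Vstm4 (0.943 to 0.966), and Pdgfa to Leprel1, Dmd and Ift43 (0.889 to 0.894). Pdgfb was closest to Tspan9, Phactr4 and Slc30a1 (0.753 to 0.823), Pdgfc to Mertk, Kank1 and Sema4c (0.911 to 0.953), and Pdgfd to Lrrc32, Efnb2 and Pear1 (0.973 to 0.982). The types share libraries and most are at 0 for several of these genes. Among the members, Pdgfrb had r of 0.67 with Pdgfd, 0.67 with Pdgfc and 0.65 with Pdgfa, and 0.20 with Pdgfra.

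Genes that process or bind PDGFs were followed in a list of 12, of which 8 were tested across types. In fibroblasts 7 were called higher, where 18.0% of all genes were, among them Plat, which encodes tissue plasminogen activator, Lrp1, a co-receptor of PDGFRβ, and Sparc, which binds PDGF. In SGC 6 were called, where 17.0% of all genes were, led by Sparc, Plat and Pcsk5, a proprotein convertase. In endothelial cells and pericytes 5 each were called, beside 14.7% and 14.5% of all genes, both led by Nrp1, a co-receptor for several growth factors. Smooth muscle had only Plat, beside 12.5%. The list's median fitted difference was 4.53 (log2) in fibroblasts against 0.62 over all genes tested, 2.58 against 0.51 in SGC, 2.83 against 0.47 in endothelial cells, 3.08 against 0.45 in pericytes and 0.53 against 0.20 in smooth muscle, and these fitted values depend on the prior count where other types are at 0. A gene can pass the filter on low counts through the type where it is high, and the lists were chosen with earlier results of these data known. Counts and medians of this list and the next are descriptions and not a test of a list. Of 28 genes that carry the receptors' signal, 21 were tested, and 1 was called higher in fibroblasts (Pik3r2), 1 in pericytes (Pik3r2), 3 in SGC (Fyn, Pik3r2 and Gab1) and 3 in endothelial cells (Nck1, Sos1 and Fyn). These counts lie at or below the shares of all genes called in the same types. The list's medians were 0.48, 0.19, 0.53 and 0.87 (log2) in these types, against 0.62, 0.45, 0.51 and 0.47 over all genes.

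After crush, no PDGF gene passed the test in any cell type. In fibroblasts, where 0.0109% of 9203 genes were called, the injury minus control difference of Pdgfra was 0.04 ± 0.31 on the log2 scale (SE), of Pdgfrb -0.19 ± 0.30, of Pdgfa 0.30 ± 0.51 and of Pdgfd 0.10 ± 0.60. In SGC it was -0.42 ± 0.32 for Pdgfc, -0.43 ± 0.40 for Pdgfrb and -0.33 ± 0.50 for Pdgfa. In endothelial cells it was -0.18 ± 0.39 for Pdgfb, 0.22 ± 0.52 for Pdgfc and 0.04 ± 0.38 for Pdgfd. In connective tissue and mesenchymal fibroblasts apart, classes tested after the data were seen, the Pdgfra difference was -0.04 ± 0.29 and 0.22 ± 0.40. For Pdgfa it was -0.08 ± 0.54 in Schwann cells and 0.32 ± 0.45 in macrophages, and for Pdgfb -0.12 in macrophages. In SGC, endothelial cells, Schwann cells and macrophages 0% of all genes were called. Of these 13 tests 0 passed and 0 had an unadjusted p under 0.05 in edgeR, and the same held in DESeq2. Among the values behind these 13 tests, only those of Pdgfc in SGC did not overlap between conditions, at 41.8 CPM ± 9.80 in control and 27.2 CPM ± 2.56 in injury (SD, n = 2 each; edgeR, adjusted p = 1.00). The control 1 value behind them rests on 7 UMIs in 46 SGC. Non-overlap of 2 against 2 values often arises without a change. Here and below its share over all genes is not given, so cases of it are listed as descriptions only. In neutrophils no member passed the filter on low counts, and 0% of genes were called. With 2 libraries a condition the standard errors ran from 0.30 to 0.60, so an unchanged level was not shown.

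**Figure D4:**
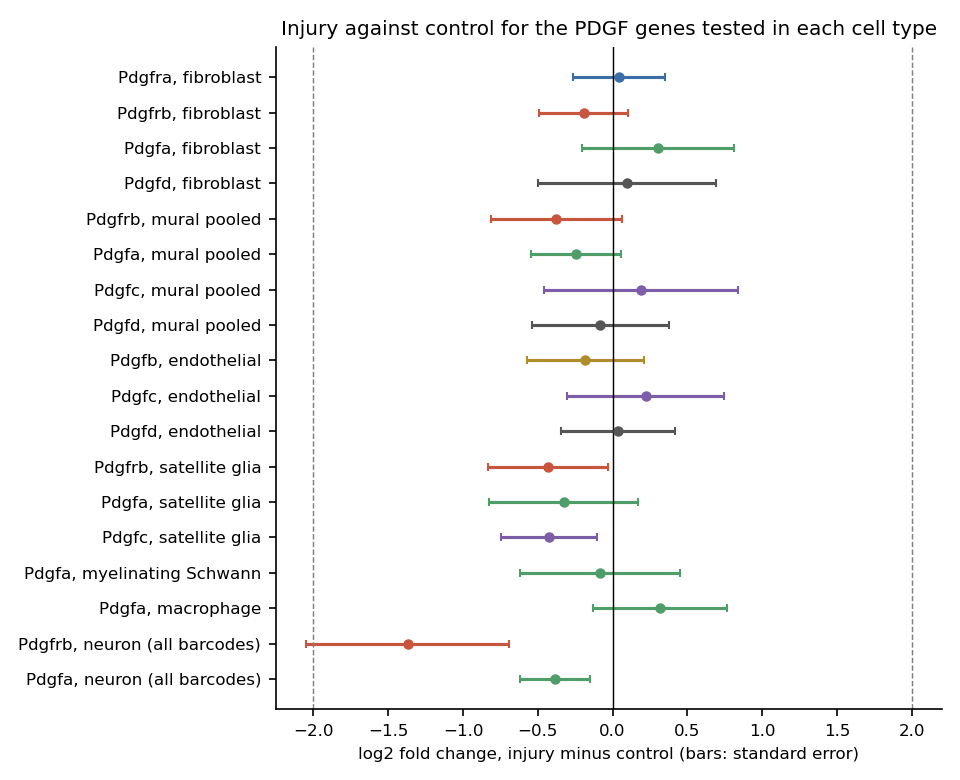
Points are the edgeR log2 fold change, injury minus control (x axis, bars standard error), of each PDGF gene tested in each cell type (y axis, colours mark the gene), and dashed lines mark the 4-fold change asked of a call. No point lies past a dashed line and none passed the test; Pdgfb in macrophages (-0.12) is not drawn because its standard error could not be derived.

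Pericytes and smooth muscle could not be tested apart, since injury 2 held 9 and 3 of them. Pooled as mural cells, a class added after the data were seen that also takes cells with markers of either list (465 cells), Pdgfrb measured 270 and 168 CPM in control and 221 and 86.8 CPM in injury, and Pdgfa 412 and 526 CPM in control and 434 and 325 CPM in injury. The conditions overlapped for both. The differences were -0.38 ± 0.44 for Pdgfrb, -0.25 ± 0.30 for Pdgfa, 0.19 ± 0.65 for Pdgfc and -0.08 ± 0.46 for Pdgfd, and 0 of 4 members and 0% of genes were called in edgeR, with 0 members under an unadjusted p of 0.05. Where a member failed the filter on low counts and was not tested, the conditions lay apart for Pdgfb in mural cells (18.7 and 14.6 CPM in control, 8.25 and 0 in injury, 17 UMIs), for Pdgfrb in macrophages (3.75 and 3.79 CPM against 0.802 and 1.84, 8 UMIs) and for Pdgfc in mesenchymal fibroblasts (0 and 4.54 CPM against 7.16 and 5.41, 10 UMIs). In neurons over all barcodes, Pdgfa was lower in both injury libraries than in both controls, by -0.39 ± 0.23 (edgeR, adjusted p = 0.600), and Pdgfrb differed by -1.37 ± 0.68 on 48 UMIs (adjusted p = 0.551). Both tests missed the threshold, and 0.0470% of genes were called there. Of the members not tested in these neurons, Pdgfc was higher in injury (0 and 0.246 CPM in control, 2.41 and 1.96 in injury, 11 UMIs). Pdgfra was lower (0.902 and 1.23 CPM in control, 0.604 and 0.654 in injury, 9 UMIs).

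Over all filtered cells of a library, Pdgfrb stood at 50.5 and 39.5 CPM in control and 25.7 and 27.9 CPM in injury, without overlap, and differed by -0.67 ± 0.26 on the log2 scale (edgeR, unadjusted p = 0.0549, adjusted p = 1.00). None of the 6 members passed in the pooled cells, where 0% of genes were called in edgeR, 0 members had an unadjusted p under 0.05, and the other 5 members overlapped between the conditions. The mural share of cells was 14.3% and 2.83% in control 1 and control 2 and 9.34% and 1.77% in injury 1 and injury 2, and the fibroblast share 22.1% and 28.7% against 14.8% and 25.7%. Each share overlapped between the conditions when taken alone, and each was lower in the injury library than in the control library of the same number. The part of these shares in the Pdgfrb difference was not tested. Within fibroblasts, mural cells and SGC the difference was between -0.43 and -0.19. The injury effect was also compared between 15 pairs of cell types, in 90 tests of members: 0 passed in edgeR. A single test, that of Pdgfrb in endothelial cells against macrophages, fell under an unadjusted 0.05, on 10 and 8 UMIs. None of the genes that process PDGFs or carry the receptors' signal passed in any of these types after injury.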

How the data were processed

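Per the study's methods, the authors made the deposited UMI counts, raw and per gene and barcode, with Cell Ranger 2.1.0; the submitters' processing notes name Cell Ranger and Partek and the build mm10, with no version. The deposited counts were used as they are. Cells were held to the limits of the study, and 37 barcodes (0.530%) that Scrublet marked as doublets were kept in the main values and left out in an alternative. Marker gates replaced the cell types of the study, so names may differ from it. Counts were summed per library and type (at least 10 cells) and fitted across all genes that passed filterByExpr with TMM scaling in edgeR 4.0.16 (R 4.3.3), quasi-likelihood. The type and the library were the terms across types, each type being set against the unweighted mean of the others. The condition was the term within a type. The standard error of an edgeR fold was approximated as its absolute log2 value over the square root of the test's F statistic. Where F was too small none is given. Following the thresholds of the study, calls required at least 2 on the log2 scale in either direction, with p-values adjusted by Benjamini-Hochberg below 0.05. DESeq2 1.42.0 was an alternative, with Leiden clusters (scanpy 1.11.5, leidenalg 0.10.2, 21 clusters) in place of gates, all barcodes, a stricter gate, no filter on low counts and each library left out. Shares were thinned to 1000 UMIs per cell, with exact (Clopper-Pearson) 95% intervals. The scripts were tested on simulated data. Figures used matplotlib 3.10.9. The 6 members, the gates and the lists were chosen with earlier results of these data known. Similar genes were the 3 with the highest correlation outside the marker lists, and at most 6 genes per list were named. The mural class and the neurons among all barcodes were added after seeing the data. The study describes biological replicates, and its reporting summary states that each batch pooled cells of several mice. The labels do not say which animals a library pools. Promoter windows came from RefSeq (GRCm38.p6), where 4 of 6 members matched. Total UMIs per library ran from 5585909 to 11210875, which limits what a sparse gene can show.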

Additional observations from a re-analysis of the deposited data

Results flagged for a closer look

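A signal outside the cells used for the comparisons was found for Pdgfa. Neuron barcodes outside the cell limits held 43.3% of all Pdgfa UMIs (1042 of 2406, in 285 barcodes), and in control 1 and control 2 Pdgfa stood at 133 and 130 CPM over all neuron barcodes. The level in the injury libraries was 76.0 and 106 CPM, so the signal was present in both conditions.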

How the results depend on the processing

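Pdgfra stayed called in fibroblasts alone except that a stricter gate gave 2 types, adding neutrophils, and DESeq2 gave 0. With the main gate neutrophils held 2 Pdgfra UMIs, both in 1 of 103 cells, from injury 2. Pdgfrb was called in 3 types instead of 5 both with Leiden clusters, where no cluster was named smooth muscle, and with DESeq2. Pdgfa was called in 3 types instead of 5 with Leiden clusters. Pdgfc, not tested in the main fit, was called in 4 types with all deposited barcodes and in 4 without the filter on low counts. In total 9 calls were made with Leiden clusters against 18. Pdgfd did not pass the filter with Leiden clusters or without control 1 and has no value there. The cause of these shifts was not tested. No alternative called a PDGF gene after injury. The 4 called contrasts stayed called where they could be computed, and Pdgfd, fibroblast minus pericyte, ranged from -0.88 to 0.069 with single libraries left out.

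With 1 library left out in turn, the arm left with 1 sample being assumed to vary like the other, the injury difference changed sign in 17 results, each uncalled. In all cells Pdgfa ranged from -0.76 to 0.17, Pdgfb from -0.59 to 0.19, Pdgfc from -0.23 to 0.47, Pdgfd from -0.91 to 0.14 and Pdgfra from -1.02 to 0.26. In fibroblasts Pdgfa ranged from -0.21 to 1.36, Pdgfd from -1.05 to 0.75, Pdgfra from -0.39 to 0.39 and Pdgfrb from -0.59 to 0.13. In macrophages Pdgfa ranged from -0.21 to 0.79 and Pdgfb from -0.56 to 0.20. In Schwann cells Pdgfa ranged from -0.64 to 0.62. In SGC Pdgfa ranged from -0.76 to 0.71 and Pdgfrb from -0.65 to 0.52. In endothelial cells Pdgfb ranged from -0.70 to 0.38, Pdgfc from -0.090 to 1.59 and Pdgfd from -0.20 to 0.22. With Leiden clusters the sign changed for Pdgfra in fibroblasts (-0.0082), Pdgfd in endothelial cells (-0.048) and Pdgfa in Schwann cells (0.29), and with all barcodes for Pdgfa in Schwann cells (0.026).

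The labels number the libraries 1 and 2 in both conditions. Libraries of the same number deviated together (correlation of deviations 0.45 over all cells), but with 2 pairs and no stated pairing the number is no block in the main fit. With a replicate block 0 of 13 member tests within types were called. Depth limits the sparse members: Pdgfb, Pdgfc and Pdgfd had 233, 358 and 264 UMIs in the filtered cells.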

Other observations

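Values that enter no comparison of the report came from small or unnamed groups of cells. A cluster of 58 cells led by Lypd2, Kcnj13 and Cldn11, which was not named, measured 75.0 CPM Pdgfra, 39.5 CPM Pdgfrb and 35.5 CPM Pdgfa, on 19, 10 and 9 UMIs. An unnamed cluster led by Acta2, Tagln and Myh11 (321 cells) measured 414 CPM Pdgfa, 174 CPM Pdgfrb, 51.8 CPM Pdgfd and 35.8 CPM Pdgfc, and drew 272 of its cells from the libraries numbered 1. T cells (66), B cells (36) and monocytes (73) held 0 Pdgfa, 0 Pdgfb and 0 Pdgfc UMIs. Ungated cells within the cell limits held 17.4% of Pdgfrb UMIs, 18.8% of Pdgfc UMIs and 2.96% of Pdgfra UMIs over all barcodes.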
